A study of Homo sapiens with 8 samples.

Results

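The genes described here are those that make cholesterol and fatty acids in the cell: 30 genes, chosen by symbol from textbook pathways, of the 27946 genes in the deposited expression table. They comprise 7 genes of the mevalonate steps, 11 of the steps from squalene to cholesterol, 4 of the regulation of the pathway and of sterol transport, and 8 of fatty acid synthesis, elongation and desaturation. Where a gene had several transcripts, the one with the highest mean level stands for it, and all 30 genes were expressed well enough to be tested. The study asked what a deletion of single elements of an endothelial super-enhancer on chromosome 16 does to the transcriptome of EA.hy926, a human hybrid of umbilical vein endothelial cells and a lung carcinoma line. The 8 libraries were made from total RNA depleted of ribosomal RNA. Control EA.hy926 cells gave 2 libraries, clonal lines without the element E2 (E2 knock-out, ΔE2) gave 3, and clonal lines without the element SE12313-b (ΔSE12313-b), which was inactive in the reporter assays of the study and was meant as a negative control, gave 3. Both elements had been cut out with Cas9 protein and a pair of guide RNAs, and all cells grew in the same medium with fetal bovine serum, without any further treatment.

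Each deletion library is a different clone, numbered below as the labels number the replicates, so that the spread within a deletion holds both clonal and technical variation. How the control cells of these libraries were handled, and whether their 2 libraries are separate cultures, is not given in the sources used here, and a difference between clones and controls cannot be told apart from an effect of cloning. The libraries held 12067556 to 19101146 reads, and the members had from 19 reads (TM7SF2 in ΔSE12313-b clone 2) to 14496 reads (SCD in ΔSE12313-b clone 3). ADAMTS18, the gene that the study linked to this super-enhancer, was at 0.682 and 0.859 FPKM in the controls and at 0.087 to 0.232 FPKM in the 6 clones. FPKM count the fragments of a gene relative to its exonic length and to the depth of the library. Marker genes of other kinds also differed between clones and controls. The summed FPKM of 10 proliferation markers was 84.0 and 86.5 in the controls and between 584 and 732 in the clones. These are levels of RNA and no measure of growth. In its own assays the study found slower proliferation of both deletions than of control cells, with fewer cells in S phase. That of 8 epithelial markers was 363 and 361 against 811 to 1210, carried by the keratins KRT7, KRT8 and KRT18, while CDH1 was at 0 in every library and KRT19, EPCAM, SFTPB and CLDN4 were too low to be tested. Of 10 endothelial markers 9 were tested, all but KDR. They summed to 214 and 215 in the controls, with CDH5 above 100 FPKM, to 204, 345 and 226 in ΔE2 and to 224, 196 and 270 in ΔSE12313-b. The sum hides single markers that moved in opposite directions. By group means, PECAM1, TEK, FLT1, ERG and ESAM were higher in both deletions than in the controls. CDH5, TIE1 and VWF were lower in both, and EMCN was lower in ΔE2 and higher in ΔSE12313-b. The part of these shifts in the results below was not tested. No member lies near the deletions: the only one on chromosome 16 is MVD, at chr16:88718348-88729557 of GRCh37.

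Cholesterol is built from acetyl-CoA through mevalonate, isoprenoid diphosphates and squalene, and the long series of enzymes that follows turns lanosterol into cholesterol. The genes of this pathway and those of fatty acid synthesis are known to be switched on together by the sterol regulatory element binding proteins SREBP-1 and SREBP-2, the products of SREBF1 and SREBF2. When sterols are abundant, the INSIG proteins hold the SREBP precursors in the endoplasmic reticulum, and when sterols run low the precursors are cut and their free part enters the nucleus, often beside the factor NF-Y, to bind promoters of the pathway.

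To show what the promoters of the members share, RefSeq windows of 300 bases, 250 before the transcription start and 50 after, were searched on both strands. A window was at hand for 26 of the 30 members and was placed on GRCh37 by a single exact match. The windows of ACAT2, FDFT1, SQLE and FASN were not analysed here. The NF-Y box CCAAT was found in 19 of the 26 windows (73.1%), against 34.6% of the 35116 RefSeq windows, and 12 of the 26 (46.2%) held 2 or more boxes, against 10.8%. A sterol regulatory element in the form TCACNCCAC was in 1 window (3.85%), that of SREBF2, against 1.13% of all windows. The E-box CACGTG, a palindrome counted once, was in 3 windows (11.5%), those of LSS, SC5D and INSIG1, against 7.26%. These matches describe letters and not binding, and other forms of the sterol element were not searched. The 26 members had 36 windows, and for each the one nearest to the start of its transcript was kept. No such choice was made among the 35116 windows, which may hold several for a gene, expressed or not. The shares of the members and of all windows are thus not of like units. For SREBF1 and PMVK the window lies 13322 and 5970 bases from the start of the transcript whose expression is given. The sequences of 5 windows follow, for the regulators SREBF2 and INSIG1, for SCD, whose expression differed most between clones, and for EBP and NSDHL, which rose evenly. Capitals mark CCAAT or its reverse complement ATTGG, the sterol element in SREBF2 and the E-box in INSIG1. In NSDHL a CCAAT and an ATTGG overlap. All 5 are read on the plus strand of GRCh37, 5′ to 3′, at chr22:42228859-42229158, chr7:155089338-155089637, chr10:102106740-102107039, chrX:48379946-48380245 and chrX:151999357-151999656, in this order.
SREBF2: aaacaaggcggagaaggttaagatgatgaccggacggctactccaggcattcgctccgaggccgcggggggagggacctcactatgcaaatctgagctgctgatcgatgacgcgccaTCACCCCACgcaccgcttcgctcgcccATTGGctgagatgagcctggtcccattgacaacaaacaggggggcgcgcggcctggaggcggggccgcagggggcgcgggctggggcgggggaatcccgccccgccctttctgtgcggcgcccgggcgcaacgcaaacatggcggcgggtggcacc
INSIG1: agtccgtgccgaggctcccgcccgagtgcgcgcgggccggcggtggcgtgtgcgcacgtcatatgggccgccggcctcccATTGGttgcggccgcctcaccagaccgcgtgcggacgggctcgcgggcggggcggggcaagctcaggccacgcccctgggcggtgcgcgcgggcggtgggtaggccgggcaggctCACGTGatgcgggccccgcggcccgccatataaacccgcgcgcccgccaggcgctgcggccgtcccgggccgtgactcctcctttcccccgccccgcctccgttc
SCD: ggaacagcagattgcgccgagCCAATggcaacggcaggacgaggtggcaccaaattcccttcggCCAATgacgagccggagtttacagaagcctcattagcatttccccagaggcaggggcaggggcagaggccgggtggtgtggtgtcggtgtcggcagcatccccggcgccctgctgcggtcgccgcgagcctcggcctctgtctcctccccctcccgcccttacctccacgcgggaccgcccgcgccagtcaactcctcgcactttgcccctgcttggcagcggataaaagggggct
EBP: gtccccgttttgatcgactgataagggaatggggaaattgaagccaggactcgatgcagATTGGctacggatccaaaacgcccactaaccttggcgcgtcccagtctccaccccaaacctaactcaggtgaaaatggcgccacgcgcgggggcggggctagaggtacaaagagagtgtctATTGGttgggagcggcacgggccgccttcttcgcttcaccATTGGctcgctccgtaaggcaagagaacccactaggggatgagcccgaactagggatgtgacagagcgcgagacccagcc
NSDHL: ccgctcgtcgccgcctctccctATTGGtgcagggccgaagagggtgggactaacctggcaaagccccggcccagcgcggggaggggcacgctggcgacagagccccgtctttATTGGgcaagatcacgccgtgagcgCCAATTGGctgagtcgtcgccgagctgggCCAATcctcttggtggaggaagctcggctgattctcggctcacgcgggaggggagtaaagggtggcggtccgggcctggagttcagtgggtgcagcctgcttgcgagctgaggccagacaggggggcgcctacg

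The change against the control cells was positive for 25 of the 30 members in ΔE2, where it was for 58.4% of all genes, and for 24 in ΔSE12313-b, against 63.8%. Counted from the median gene, 24 members in ΔE2 and 20 in ΔSE12313-b lay above it. In ΔE2, 10 of the 30 members were upregulated DEGs, 2 were downregulated DEGs and 18 were no DEGs. A DEG (differentially expressed gene) is one that differed at least 2-fold with an adjusted p under 0.05 (limma on log2 of FPKM + 0.1, Benjamini-Hochberg over 13790 genes). Of all genes tested, 11.2% were upregulated and 8.36% downregulated DEGs in this comparison. In ΔSE12313-b, 9 members were upregulated DEGs, against 14.7% of all genes, 1 was downregulated, against 7.83%, and 20 were no DEGs. The median change of the members on the log2 scale was 0.67 in ΔE2 and 0.50 in ΔSE12313-b, beside medians of 0.14 and 0.27 over all genes tested, so that relative to the typical gene the members of ΔSE12313-b stood 0.23 higher. All changes below are as the deposited scaling gives them. After a centring of every library on its median gene, 6 members of ΔE2 and 5 of ΔSE12313-b were upregulated DEGs. The shares of all genes given above belong to the deposited scaling and are no background for these counts. Both deletions were compared with the same 2 control libraries, so their changes are not independent of each other. RNA was taken from whole cultures, in which a change in the share of cells and a change per cell cannot be told apart.

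**Figure D1:**
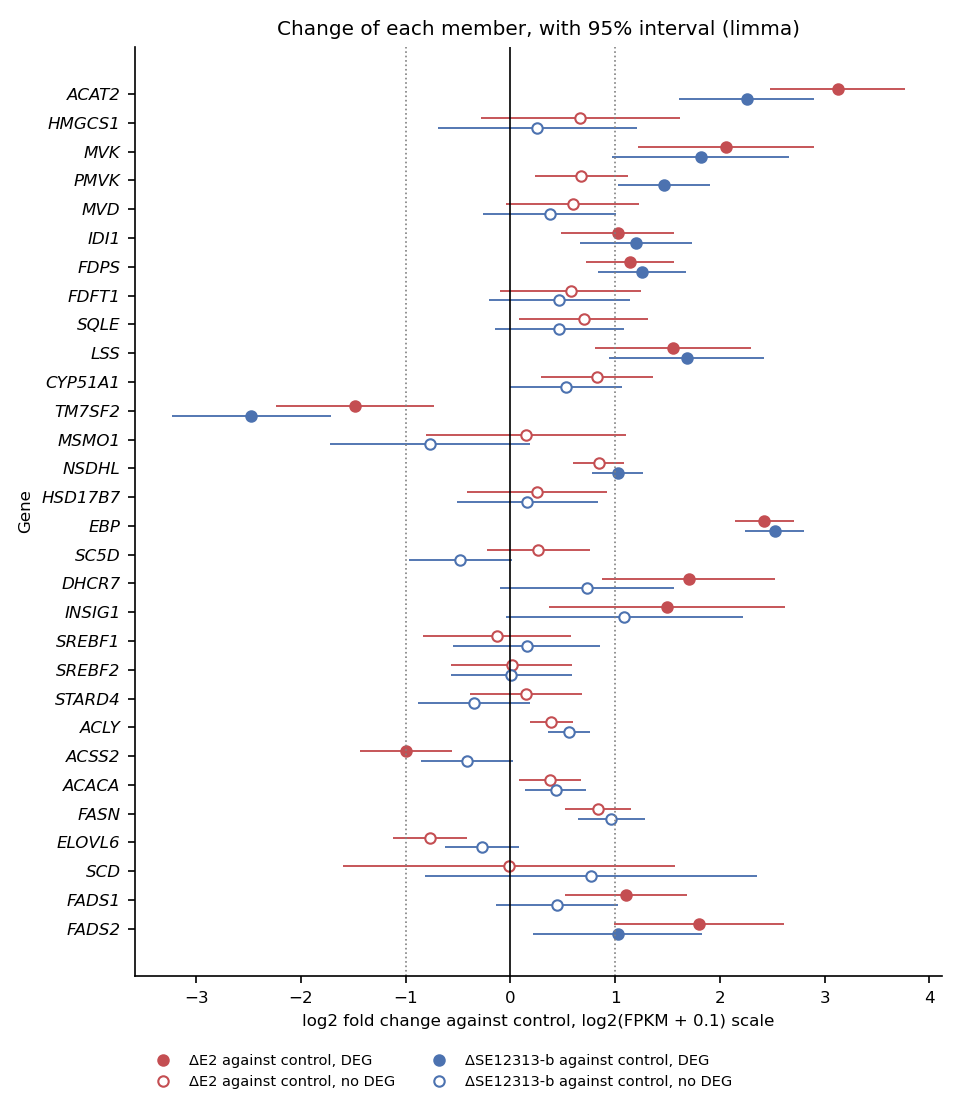
log2 change of the 30 members (rows, in the order of their steps) in ΔE2 (red) and ΔSE12313-b (blue) against control, on the log2(FPKM + 0.1) scale, with the 95% interval from limma (3 clones of each deletion, 2 controls). Filled points are DEGs, and the dotted lines mark 2-fold. ACAT2 and EBP lie farthest to the right, with TM7SF2 farthest to the left.

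All 3 ΔE2 clones were above both controls for 20 members, below both for 3, and overlapped with them for 7, where of all genes 44.8% lay above, 28.7% below and 26.5% overlapped. For ΔSE12313-b 19 members lay above, 6 below and 5 overlapped, against 51.6%, 23.8% and 24.7% of all genes. The members DEG in both deletions were 7 upregulated genes (ACAT2, MVK, IDI1, FDPS, LSS, EBP and FADS2) and 1 downregulated gene (TM7SF2). The share of all genes that were DEGs in both is not given here, and both deletions share the controls. These counts are therefore no result about the members as a group. DHCR7, INSIG1 and FADS1 were upregulated DEGs in ΔE2 and not in ΔSE12313-b, PMVK and NSDHL in ΔSE12313-b and not in ΔE2, and ACSS2 was downregulated in ΔE2 and not in ΔSE12313-b. The remaining 16 members were DEGs in neither. Such differences between lists of calls were tested directly only in the comparison of the deletions given further on.

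**Figure D2:**
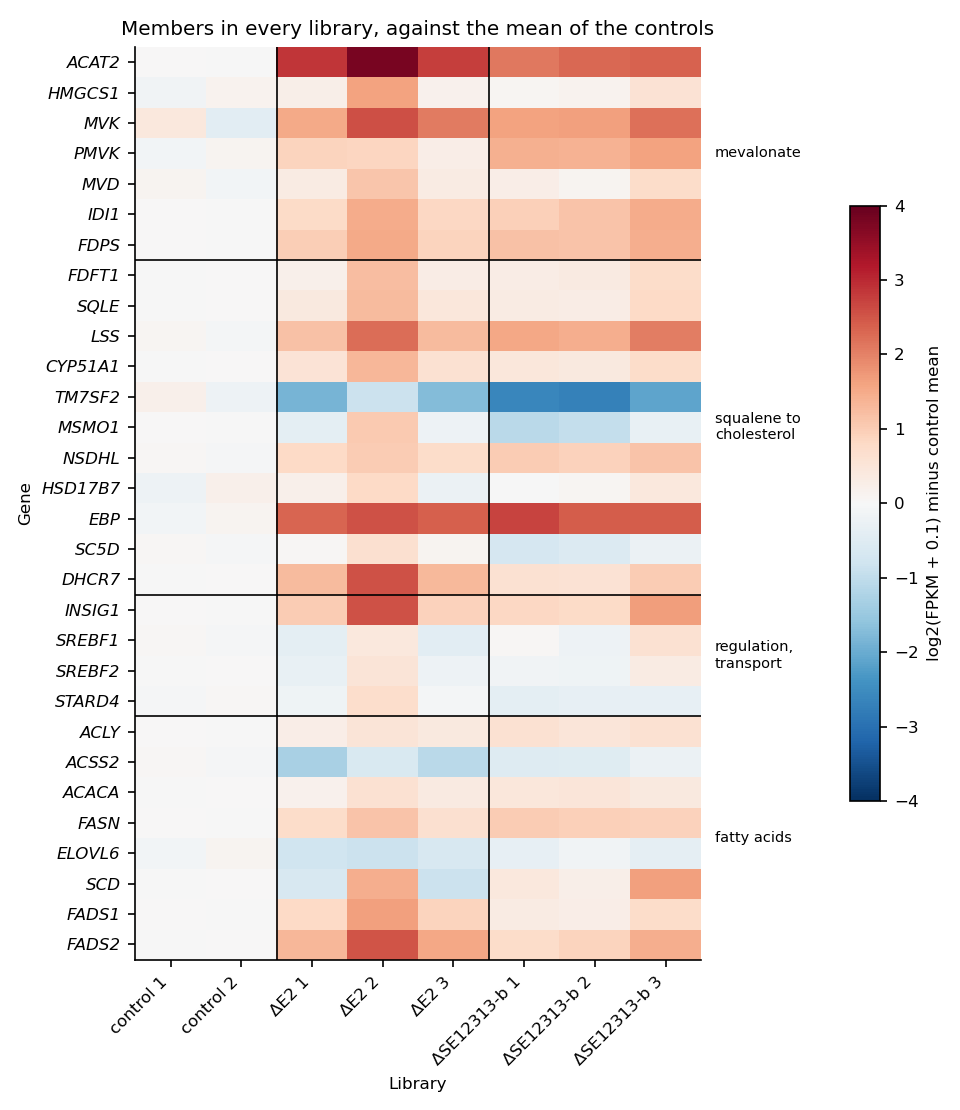
Each of the 30 members (rows) in each of the 8 libraries (columns), as log2(FPKM + 0.1) minus the mean of the controls. Red is above and blue below the controls. The columns of ΔE2 clone 2 and ΔSE12313-b clone 3 are the reddest of their deletions, and TM7SF2 is blue in all 6 clones.

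In the mevalonate steps all 7 genes had a positive change in both deletions, with 4 DEGs in ΔE2 and 5 in ΔSE12313-b. ACAT2 makes acetoacetyl-CoA, which feeds the first committed step. It was at 1.89 and 1.83 FPKM in the controls, at 14.0, 26.9 and 13.1 FPKM in ΔE2 and at 8.40, 9.51 and 9.97 FPKM in ΔSE12313-b. It had the highest change of all members in ΔE2, 8.74-fold (log2 3.13 ± 0.28 SE, adjusted p = 6.63e-05, limma), and rose 4.78-fold in ΔSE12313-b (log2 2.26 ± 0.28, adjusted p = 0.00027), with no overlap between any clone and the controls. At their 3′ ends the transcript spans of ACAT2 and of TCP1, on the other strand, overlap by 558 bases. The exonic bases shared by the 2 genes are 454. TCP1 was at 61.3 and 62.8 FPKM in the controls. Reads counted without regard to strand would have added up to about 22.5 FPKM to ACAT2, if all 558 bases were counted. This is far more than was measured for ACAT2 in the controls.

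MVK, mevalonate kinase, was at 1.61 and 0.868 FPKM in the controls, the widest relative gap between the controls in these steps. It rose to 3.54, 7.65 and 5.39 FPKM in ΔE2 (log2 2.06 ± 0.36, adjusted p = 0.00207, limma) and to 3.81, 3.89 and 5.87 FPKM in ΔSE12313-b (log2 1.82 ± 0.36, adjusted p = 0.00325). PMVK adds the following phosphate. It was at 3.67 and 4.19 FPKM in the controls, at 7.42, 7.21 and 4.76 FPKM in ΔE2 and at 10.6, 10.4 and 12.1 FPKM in ΔSE12313-b, so the 3 groups did not overlap. Its change was log2 0.68 ± 0.19 in ΔE2 (adjusted p = 0.0179, under 2-fold) and 1.47 ± 0.19 in ΔSE12313-b (adjusted p = 0.000364, limma).

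IDI1 interconverts the isoprenoid building blocks, and FDPS joins them into farnesyl diphosphate, where the paths to sterols, ubiquinone and prenylated proteins part. IDI1 was at 3.86 and 3.85 FPKM in the controls, at 6.70, 10.9 and 6.85 FPKM in ΔE2 (log2 1.02 ± 0.23, adjusted p = 0.00681, limma) and at 7.61, 8.66 and 11.0 FPKM in ΔSE12313-b (log2 1.2 ± 0.23, adjusted p = 0.00269). FDPS was at 20.4 FPKM in both controls, at 40.7, 59.0 and 38.0 FPKM in ΔE2 (log2 1.14 ± 0.18, adjusted p = 0.00125) and at 46.5, 45.4 and 55.5 FPKM in ΔSE12313-b (log2 1.26 ± 0.18, adjusted p = 0.000618, limma). Every clone was above both controls for both genes. Without ΔE2 clone 2 the changes of IDI1 and FDPS in ΔE2 were 0.80 and 0.95, under 2-fold. IDI1 lies on 10p, where in ΔSE12313-b against control the median gene stood log2 0.45 above the median of all genes. Set against the median gene of that arm, the change of IDI1 in ΔSE12313-b was 0.40. The part of the arm in this change was not tested. Reads of IDI1 and FDPS may be shared with pseudogenes, of which the annotation lists 3 and 8, and the IDI1 transcript with the highest expression is annotated as non-coding.

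The other 2 genes of these steps were no DEGs. HMGCS1, which condenses acetoacetyl-CoA into HMG-CoA, was at 3.10 and 3.75 FPKM in the controls, at 4.03, 10.6 and 3.82 FPKM in ΔE2 and at 3.59, 3.75 and 5.12 FPKM in ΔSE12313-b. MVD, which makes isopentenyl diphosphate, was at 5.89 and 4.94 FPKM in the controls, at 6.78, 11.8 and 6.85 FPKM in ΔE2 and at 6.57, 5.78 and 9.11 FPKM in ΔSE12313-b. In both, ΔE2 clone 2 and ΔSE12313-b clone 3 were the highest of their groups, and the other clones lay near the controls. The adjusted p was 0.202 and 0.607 for HMGCS1 and 0.103 and 0.273 for MVD in ΔE2 and ΔSE12313-b (limma).

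Among the 11 genes from squalene to cholesterol, 3 were upregulated and 1 was downregulated in each deletion. EBP, the sterol isomerase that moves the double bond of the ring system, had the lowest adjusted p of all members in both deletions. It was at 3.97 and 4.61 FPKM in the controls, at 22.0, 25.7 and 22.7 FPKM in ΔE2 and at 28.5, 23.5 and 23.5 FPKM in ΔSE12313-b. The rise was 5.37-fold in ΔE2 (log2 2.42 ± 0.12, adjusted p = 3.06e-06, limma) and 5.74-fold in ΔSE12313-b (log2 2.52 ± 0.12, adjusted p = 2.26e-06), and the 6 clones lay close together. A gene model without a name overlaps 644 bases of EBP on the same strand, so reads of that model and of EBP could not be told apart.

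LSS closes squalene epoxide into lanosterol. It was at 3.02 and 2.74 FPKM in the controls, at 6.55, 13.9 and 7.06 FPKM in ΔE2 (log2 1.55 ± 0.32, adjusted p = 0.00444, limma) and at 8.66, 7.97 and 12.2 FPKM in ΔSE12313-b (log2 1.68 ± 0.32, adjusted p = 0.00254). NSDHL, which takes part in the removal of the methyl groups at carbon 4, was at 8.42 and 8.06 FPKM in the controls, at 14.3, 16.7 and 13.7 FPKM in ΔE2 and at 16.8, 15.8 and 18.1 FPKM in ΔSE12313-b. Its changes of log2 0.84 ± 0.11 and 1.03 ± 0.11 lay on either side of 2-fold (adjusted p = 0.000377 and 0.000108, limma), and the interval of the difference between the deletions, -0.40 to 0.04, included no difference. The call in ΔSE12313-b was lost without control replicate 2 and without clone 3 of that deletion (log2 0.99 and 0.98).

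DHCR7 carries out the last step to cholesterol by one of the routes. It was at 5.12 and 5.20 FPKM in the controls, at 12.5, 30.5 and 12.9 FPKM in ΔE2 and at 7.94, 7.75 and 10.5 FPKM in ΔSE12313-b. All clones exceeded the controls, and the ΔE2 clones exceeded those of ΔSE12313-b. The change was log2 1.70 ± 0.36 in ΔE2 (adjusted p = 0.0048, limma) and 0.73 ± 0.36 in ΔSE12313-b (adjusted p = 0.112).

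TM7SF2, a sterol reductase of the same series, went the other way. It was at 6.82 and 5.23 FPKM in the controls, at 1.57, 3.27 and 1.72 FPKM in ΔE2 and at 0.890, 0.834 and 1.31 FPKM in ΔSE12313-b. Every clone was below both controls, 2.80-fold lower in ΔE2 (log2 -1.48 ± 0.33, adjusted p = 0.00607, limma) and 5.56-fold lower in ΔSE12313-b (log2 -2.47 ± 0.33, adjusted p = 0.000391). Without control replicate 1 the change in ΔE2 was -1.3 and its adjusted p 0.0514. The transcript with the highest expression is annotated as non-coding for this gene as well.

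The other 6 genes of this branch were no DEGs in either deletion. FDFT1 (squalene synthase) and SQLE (squalene epoxidase) stood at 15 to 37.1 FPKM in the controls and were higher in each of the 6 clones, reaching 87.3 and 36.5 FPKM in ΔE2 clone 2. CYP51A1, which removes a methyl group of lanosterol, rose from 17.5 and 17.9 FPKM to 25.7, 45.1 and 26.9 FPKM in ΔE2 (log2 0.82 ± 0.23, adjusted p = 0.0175, limma, under 2-fold). It reached 23.5 to 29.6 FPKM in ΔSE12313-b, with an adjusted p of 0.0805, and its reads may be shared with 3 pseudogenes and with unnamed gene models on the same strand. MSMO1, the methyl oxidase at carbon 4, was at 16.9 and 16.8 FPKM in the controls, at 12.8, 34.8 and 14.7 FPKM in ΔE2 and at 8.01, 8.61 and 13.8 FPKM in ΔSE12313-b. Thus 2 ΔE2 clones lay below the controls and 1 far above, and the ΔSE12313-b clones all lay below. HSD17B7, a reductase of the demethylation steps, ranged from 4.13 to 8.57 FPKM and SC5D, the sterol desaturase, from 1.92 to 4.95 FPKM over all libraries, both highest in ΔE2 clone 2.

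Of the 4 genes of regulation and transport, INSIG1 was a DEG in ΔE2 and none was one in ΔSE12313-b. SREBF2, whose product is the main activator of the sterol genes, was at 15.4 and 15.8 FPKM in the controls, at 12.8, 22.5 and 13.6 FPKM in ΔE2 and at 14.0, 14.0 and 19.7 FPKM in ΔSE12313-b. SREBF1 was at 9.78 and 9.28 FPKM in the controls, at 7.17, 12.9 and 7.09 FPKM in ΔE2 and at 9.81, 8.29 and 14.7 FPKM in ΔSE12313-b. In both genes and both deletions at least 1 clone lay above the controls and at least 1 below, so the groups overlapped. The changes of SREBF2 were log2 0.01 ± 0.25 in each deletion, which became -0.14 and -0.28 with centring. Those of SREBF1 were -0.13 ± 0.30 and 0.15 ± 0.30, the latter -0.13 with centring. The intervals of SREBF2, -0.56 to 0.59 in ΔE2 and -0.57 to 0.58 in ΔSE12313-b, leave room for changes of less than 2-fold in either direction (adjusted p = 0.969 and 0.985, limma).

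INSIG1, the sterol sensor that retains the SREBP precursors and is itself a target of them, was at 7.72 and 7.43 FPKM in the controls. It was at 15.3, 44.8 and 14.5 FPKM in ΔE2 and at 13.5, 12.9 and 24.6 FPKM in ΔSE12313-b, above the controls in all 6 clones. The change was log2 1.5 ± 0.49 in ΔE2 (adjusted p = 0.0321, limma) and 1.09 ± 0.49 in ΔSE12313-b (adjusted p = 0.0872). The call in ΔE2 was lost without ΔE2 clone 2, where the change was 0.97, and without either control, where the adjusted p was 0.106 and 0.118. The same omission of ΔE2 clone 2 lowered the shared estimate of the spread, and INSIG1 then was an upregulated DEG in ΔSE12313-b, with an adjusted p of 0.0101. STARD4, which carries cholesterol between membranes, was at 11.7 and 12.5 FPKM in the controls, at 10.7, 19.7 and 11.4 FPKM in ΔE2 and at 9.14, 9.63 and 9.69 FPKM in ΔSE12313-b.

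In fatty acid synthesis the enzymes of the core path rose by less than 2-fold. ACLY, which makes cytosolic acetyl-CoA from citrate, was at 50.3 and 49.1 FPKM in the controls and at 60.1 to 75.6 FPKM in the 6 clones (log2 0.39 ± 0.09 in ΔE2, adjusted p = 0.00635, and 0.56 ± 0.09 in ΔSE12313-b, adjusted p = 0.000907, limma). ACACA, acetyl-CoA carboxylase, was at 5.6 and 5.78 FPKM and at 6.35 to 8.65 FPKM (log2 0.37 ± 0.13 and 0.43 ± 0.13, adjusted p = 0.0375 and 0.0196, limma). FASN, fatty acid synthase, was at 17.8 and 17.2 FPKM in the controls, at 29.1, 38.6 and 27.5 FPKM in ΔE2 and at 35.6, 34.2 and 33.0 FPKM in ΔSE12313-b. Its changes, log2 0.84 ± 0.14 (adjusted p = 0.00137, limma) and 0.97 ± 0.14 (adjusted p = 0.000555), were just under 2-fold, and no clone overlapped with the controls. ACSS2, which makes acetyl-CoA from acetate, fell. It was at 21.9 and 20.1 FPKM in the controls, at 8.48, 13.6 and 9.84 FPKM in ΔE2 (log2 -1.0 ± 0.19, adjusted p = 0.00293, limma) and at 14.7, 14.8 and 18 FPKM in ΔSE12313-b (log2 -0.41 ± 0.19, adjusted p = 0.0956). Its call in ΔE2 sits on the 2-fold line, and it was lost without control replicate 1, without ΔE2 clone 1 and without ΔE2 clone 3 (log2 -0.94, -0.85 and -0.96).

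The desaturases and the elongase differed from each other. FADS2 and FADS1 introduce double bonds into polyunsaturated fatty acids. FADS2 was at 5.64 and 5.88 FPKM in the controls, at 14.6, 33.7 and 17.1 FPKM in ΔE2 (log2 1.80 ± 0.35, adjusted p = 0.00328, limma) and at 9.59, 10.7 and 16.0 FPKM in ΔSE12313-b (log2 1.02 ± 0.35, adjusted p = 0.035). Its call in ΔSE12313-b was lost without either control or without clone 2 or 3 of that deletion (without clone 3, log2 0.81). FADS1 was at 24.7 and 24.2 FPKM in the controls, at 42.3, 76.7 and 45.5 FPKM in ΔE2 (log2 1.11 ± 0.25, adjusted p = 0.00696, limma) and at 30.6, 29.5 and 40.8 FPKM in ΔSE12313-b, where the adjusted p was 0.164. Without ΔE2 clone 2 its change in ΔE2 was 0.84. All 6 clones were above the controls in both genes, which lie back to back and overlap at their 5′ ends by 490 exonic bases on opposite strands. ELOVL6, which elongates palmitate, was at 2.15 and 2.53 FPKM in the controls, at 1.3, 1.23 and 1.48 FPKM in ΔE2 (log2 -0.76 ± 0.15, adjusted p = 0.00386, limma) and at 1.86, 2.1 and 1.80 FPKM in ΔSE12313-b, where the adjusted p was 0.16. SCD, the desaturase that makes oleate, was at 52.7 and 53.5 FPKM in the controls, at 34.2, 144 and 29.5 FPKM in ΔE2 and at 70.9, 62.6 and 167 FPKM in ΔSE12313-b. Of the ΔE2 clones 2 were thus below the controls and 1 far above, and the interval of the change, -1.60 to 1.57 on the log2 scale, was the widest of the members in this comparison.

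**Figure D3:**
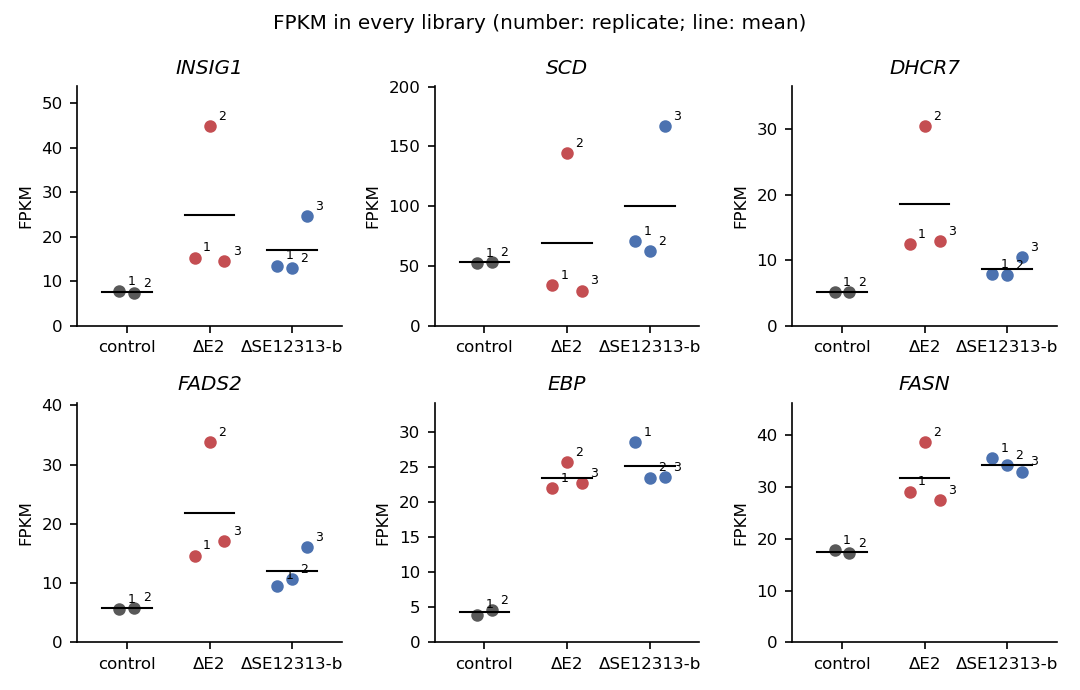
FPKM (linear axis from 0) of 6 members in every library; numbers are the replicate numbers and lines the group means. INSIG1, SCD, DHCR7 and FADS2 are far higher in ΔE2 clone 2 than in the other ΔE2 clones, up to 144 FPKM for SCD, while EBP and FASN lie close together within each deletion.

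In each deletion 1 clone stood apart. ΔE2 clone 2 was the highest of the 3 ΔE2 clones for 28 of the 30 members, whereas it was the highest for 36.3% of all genes tested. On the log2(FPKM + 0.1) scale it exceeded both other clones by at least 1.5-fold for 18 members, against 4.95% of all genes. ΔSE12313-b clone 3 was the highest of its deletion for 25 members, against 36.1% of all genes, and by at least 1.5-fold for 3 members (INSIG1, SCD and MSMO1), against 4.34%. The summed FPKM of the 30 members was 387 and 385 in the controls, then 493, 930 and 502 for ΔE2 and 547, 525 and 743 for ΔSE12313-b. The median member was log2 0.80 higher in ΔE2 clone 2 than the mean of the other 2 ΔE2 clones, with a range from -0.16 (ELOVL6) to 2.18 (SCD). It was log2 0.42 higher in ΔSE12313-b clone 3 than in the other 2 clones of that deletion, from -0.14 (EBP) to 1.32 (SCD). Over all genes both medians were -0.01. In the same 2 clones the summed endothelial markers were also the highest of their groups, and their part in this pattern was not tested. This difference between clones was noticed in the data and is described without a test.

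The 2 differences tended to rise and fall together across the members. Both differences were positive for 26 of the 30 members (86.7%), against 30.1% of all genes tested. The 2 clones were singled out on these same values, as the highest of their deletions for most members. That choice largely fixed the share of members in advance, so no conclusion is drawn from it. Across the 30 members the 2 differences had a Pearson r of 0.856 and a Spearman rho of 0.754, and across all 13790 genes 0.137 and 0.364. These are correlations across genes, which are not independent replicates, between 2 clones that share no library. The clones were chosen on the values of the members and not on those of all genes. The correlations of the members and of all genes are therefore not alike in kind, and no conclusion is drawn from their difference. SCD, INSIG1, HMGCS1, MSMO1, DHCR7 and FADS2 differed most in ΔE2 clone 2, by 4.53-, 2.99-, 2.66-, 2.53-, 2.39- and 2.13-fold. In ΔSE12313-b clone 3 the same 6 genes were higher by 2.5-, 1.86-, 1.38-, 1.66-, 1.33- and 1.57-fold. SREBF1 and SREBF2 were 1.80- and 1.69-fold higher in ΔE2 clone 2 and 1.62- and 1.40-fold higher in ΔSE12313-b clone 3. EBP, PMVK, NSDHL, ACLY, ACACA and FASN differed by at most 1.36-fold in either clone.

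**Figure D4:**
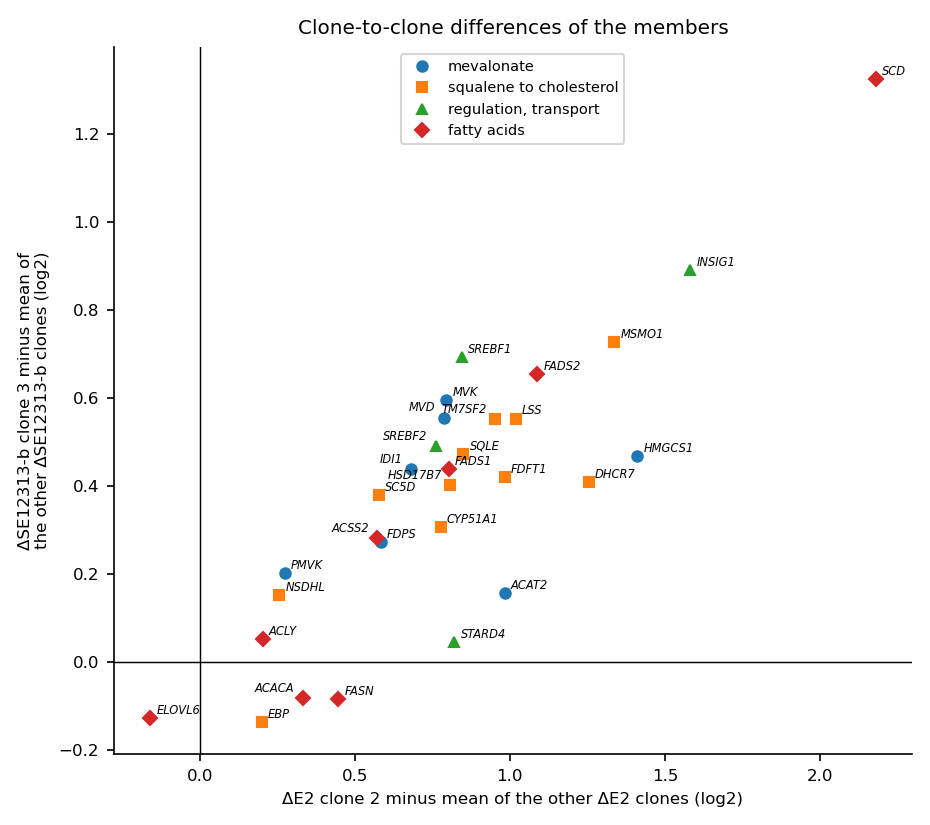
Difference of ΔE2 clone 2 from the mean of the other ΔE2 clones (horizontal) and of ΔSE12313-b clone 3 from the mean of the other ΔSE12313-b clones (vertical), on the log2(FPKM + 0.1) scale, 1 point for each of the 30 members. Most points (26) lie in the upper right, and SCD (2.18 and 1.32) and INSIG1 (1.58 and 0.89) lie farthest out.

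Without ΔE2 clone 2 the median change of the members in ΔE2 against control was 0.37 in place of 0.67, and 6 members were upregulated DEGs in place of 10. ACAT2, MVK, LSS, EBP, DHCR7 and FADS2 were the 6. The share of all genes called without this clone is not given here, so the lower count is no result about the members as a group. Without ΔSE12313-b clone 3 the median in that deletion was 0.38 in place of 0.50. Both clones were then left out, a choice made after seeing the data. SREBF2 was then slightly below the controls in ΔE2 (log2 -0.24 ± 0.07, adjusted p = 0.0225, limma). MSMO1 became a second downregulated DEG of ΔSE12313-b (log2 -1.01). The clones left out were chosen as the highest for most members, SREBF2 and MSMO1 among them. Their omission by itself lowers both the changes and the spread, so no conclusion is drawn from this p-value or this call.

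Between the deletions themselves, which share no library, no member was a DEG by limma, where 1.6% of all genes were higher and 2.63% lower in ΔE2 than in ΔSE12313-b. With voom weights on the reads behind the FPKM no member was a DEG either. At an unadjusted p under 0.05 there were 11 members, against 38.8% of all genes. Without the fold limit 3 members were higher and 3 lower at an adjusted p under 0.05, where 6.69% of all genes were higher and 19.3% lower, so that the 6 members together were no larger a share than among all genes. ACAT2 (log2 0.87 ± 0.25, adjusted p = 0.0366), SC5D (0.75 ± 0.19, 0.0245) and TM7SF2 (0.99 ± 0.29, 0.0411) were higher in ΔE2, and PMVK (-0.79 ± 0.17, 0.0133), ACSS2 (-0.59 ± 0.17, 0.0374) and ELOVL6 (-0.49 ± 0.14, 0.0337, limma) were lower. The chromosome arms of some of these genes also shifted as a whole. On the arm of ACAT2, 6q, the median gene stood 0.57 above the median of all genes in this comparison, and on that of TM7SF2 and SC5D, 11q, 0.39 above it. On 4q, the arm of ELOVL6, it stood 0.46 above, although ELOVL6 itself was lower in ΔE2. For PMVK (1q) and ACSS2 (20q) the shift of the arm was 0.02 and -0.05. Set against the median gene of its own arm, the difference was 0.43 for ACAT2, 0.73 for TM7SF2 and 0.49 for SC5D, and -0.67 for PMVK, -0.41 for ACSS2 and -0.83 for ELOVL6. The part of the arms in these differences was not tested. For DHCR7, INSIG1 and FADS1, DEGs in ΔE2 and not in ΔSE12313-b, the adjusted p of the difference was 0.0594, 0.536 and 0.0644, with 95% intervals from 0.23 to 1.71, from -0.60 to 1.41 and from 0.14 to 1.19 on the log2 scale. With all libraries the difference of SCD was log2 -0.78 ± 0.61 (adjusted p = 0.387, limma), and the shift of its arm, 10q, was -0.36. Without ΔE2 clone 2 SCD was lower in ΔE2 than in ΔSE12313-b (log2 -1.51 ± 0.39, adjusted p = 0.0314, limma). This left out the high clone of ΔE2 only, while ΔSE12313-b clone 3, at 167 FPKM, was kept. No conclusion is drawn from this omission.

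Related genes outside the 30 were counted by function. Of all genes tested, 11.2% were upregulated and 8.36% downregulated DEGs in ΔE2, and 14.7% and 7.83% in ΔSE12313-b. The counts of every list here and in the next paragraph are to be read beside these shares. Differences between lists were not tested. Of 24 tested genes of sterol sensing, uptake, storage and export, 1 was upregulated and 2 were downregulated in ΔE2, and 5 and 1 in ΔSE12313-b. TMEM97, a sterol-regulated binding partner of the cholesterol transporter NPC1, was at 2.61 and 1.94 FPKM in the controls and at 10.7 to 11.9 FPKM in the 6 clones (log2 2.27 ± 0.13, adjusted p = 5.61e-06, and 2.25 ± 0.13, adjusted p = 4.85e-06, limma). NR1H3, the oxysterol receptor LXRα, was at 5.19 and 5.08 FPKM in the controls, at 1.64, 3.28 and 1.83 FPKM in ΔE2 (log2 -1.22 ± 0.35, adjusted p = 0.0184) and at 1.94, 1.87 and 3.57 FPKM in ΔSE12313-b (log2 -1.09 ± 0.35, adjusted p = 0.026, limma). As with the members, ΔE2 clone 2 and ΔSE12313-b clone 3 had the highest level of their groups.

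In the isoprenoid branch, 4 of 12 genes were upregulated in each deletion, with none and 1 downregulated. PDSS1, which makes the side chain of ubiquinone, rose by log2 2.06 and 2.54, COQ2, which attaches it, by 1.24 and 1.34, and FNTB, a subunit of the enzyme that farnesylates proteins, by 1.08 and 1.65 (all with an adjusted p under 0.05, limma). Of 24 tested genes of other fatty acid and glycerolipid synthesis, 1 was upregulated in ΔE2 and 3 in ΔSE12313-b, and none was downregulated. HACD2, a dehydratase of fatty acid elongation, was the DEG of both deletions (log2 1.12 and 1.15). Of 15 tested genes of fatty acid oxidation, 2 were upregulated and 2 downregulated in ΔE2, and 1 was upregulated and none downregulated in ΔSE12313-b, with no DEG in both.

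Outside the lists, ARRB1, which encodes β-arrestin 1, was among the 3 genes whose level over the 8 libraries was most like the mean z score of the 30 members (Pearson r = 0.979 over 8 libraries). It was at 9.05 and 8.90 FPKM in the controls, at 12.1, 29.0 and 14.4 FPKM in ΔE2 and at 15.2, 15.5 and 23.1 FPKM in ΔSE12313-b.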

How the data were processed

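RNA-seq of 8 EA.hy926 libraries (2 control, 3 ΔE2 and 3 ΔSE12313-b) was analysed. Per the labels, libraries were prepared with a directional kit from total RNA depleted of ribosomal RNA and sequenced as single ends. The submitters' processing notes name Trim Galore 0.4.4, STAR 2.5.4b and the build GRCh37. The authors deposited 1 table of FPKM for 65572 RefSeq transcripts, with their lengths as the only other measurement. The layout is that of HOMER, and the tool, the RefSeq release and the use of strand in counting are not given in the sources used here. The authors' own calls rest on other counts (featureCounts, edgeR), which were not used here.

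The read count behind an FPKM was recovered from the transcript length and the value of 1 read, and was whole (to within 0.1 read) in 100% of the cases checked. Depth followed from it: 12067556 to 19101146 per library, of which 7802376 to 13374180 on the 27946 genes. The 13790 genes, all 30 members among them, that reached an FPKM of 0.5 in 2 or more libraries were fitted by limma (version 3.58.1, R version 4.3.3) on the log2(FPKM + 0.1) scale, as 3 groups with a variance trend, two-sided, with Benjamini-Hochberg adjustment. A fold change on this scale understates that of low genes. DEGs changed 2-fold or more with an adjusted p under 0.05. The fit was tested on simulated data. The p-values rest on a shared estimate of the spread within groups, over these clonal lines and control libraries only. For most members the 2 control libraries lay closer together than the clones did. The p-values therefore do not measure the variation between independent control lines.

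The members, the gene lists and the tests were chosen with earlier results of these data known. All members are accounted for, with values in every library for the DEGs and for SREBF1, SREBF2, INSIG1, FASN and SCD. From every other list at most 3 genes that were DEGs in both deletions were named, those of the highest mean absolute change. Of the 3 genes most like the members, 2 are not reported here. Alternatives were pseudocounts of 0.01 and 1, other filters, centring, quantile normalization, a replicate block, leaving out each library, no trend, the groups compared alone, the longest transcript, other thresholds, and voom on the recovered reads. Promoter windows are those of RefSeq (GRCh38.p14), placed on GRCh37 by exact match.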

Additional observations from a re-analysis of the deposited data

Results flagged for a closer look

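The direct comparison of the deletions marked 6 members, because the test of the difference itself passed an adjusted p under 0.05 (limma, 3 clones against 3), although none reached 2-fold. Of all genes tested 6.69% were higher and 19.3% lower by the same rule, and the count is no result about the members as a group. ACAT2 (log2 0.87 higher in ΔE2), SC5D (0.75) and TM7SF2 (0.99) were higher in ΔE2. PMVK (-0.79), ACSS2 (-0.59) and ELOVL6 (-0.49) were lower in ΔE2 than in ΔSE12313-b. For TM7SF2 the 3 clones of ΔE2 (1.57 to 3.27 FPKM) and of ΔSE12313-b (0.834 to 1.31 FPKM) did not overlap and all lay below the controls. For ELOVL6 (1.23 to 1.48 against 1.80 to 2.1 FPKM) and ACSS2 (8.48 to 13.6 against 14.7 to 18 FPKM) the lower values were those of ΔE2. For ACAT2 (13.1 to 26.9 against 8.40 to 9.97 FPKM) and SC5D (3.19 to 4.95 against 1.92 to 2.65 FPKM) they were those of ΔSE12313-b, as they were of ΔE2 for PMVK (4.76 to 7.42 against 10.4 to 12.1 FPKM).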

How the results depend on the processing

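Each count of members was recomputed under 22 alternatives, and 110 of the counts so obtained stayed within 1.5 times while 22 moved further. The counts below are set against those of the main fit and not against the shares of all genes. For ΔE2 against control (10 up, 2 down), 6 members were upregulated with centring, with quantile normalization and without ΔE2 clone 2 and ΔSE12313-b clone 3 together, and 1 was downregulated with a pseudocount of 1. Leaving out single libraries gave 6 to 10 up and 0 to 2 down. For ΔSE12313-b (9 up, 1 down), centring and quantile normalization gave 5 up, and 2 were downregulated with quantile normalization and without the 2 clones. Between the deletions (0 and 0), 1 was higher in ΔE2 with a pseudocount of 0.01, 3 with centring, 2 with quantile normalization and 3 at 1.5-fold, and 2 were lower at 1.5-fold and 1 without the 2 clones. Leaving out single libraries gave 0 to 2 higher and 0 to 1 lower.

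SREBF2 and SREBF1 lie near 0 and changed sign. In ΔE2, SREBF2 was at log2 -0.14 with centring, -0.25 with quantile normalization, -3.5e-05 with the longest transcript and -0.24 without the 2 clones. In ΔSE12313-b it was at -0.28, -0.40, -0.012 and -0.16 in the same order. SREBF1 in ΔSE12313-b was at -0.13 with centring, -0.19 with quantile normalization and -0.077 without the 2 clones. With single libraries left out, SREBF2 lay between -0.24 and 0.16 for ΔE2 and between -0.16 and 0.090 for ΔSE12313-b, SREBF1 between -0.41 and 0.015 and between -0.077 and 0.33, and SCD in ΔE2 between -0.74 and 0.40. The cause was not tested.

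Same-numbered clones of the 2 deletions correlated by 0.107, -0.080 and -0.073 in their deviations from the group means, so the numbers were taken as not pairing the samples. Among differently numbered clones, ΔE2 clone 2 with ΔSE12313-b clone 3 (0.137) and ΔE2 clone 3 with ΔSE12313-b clone 2 (0.110) had positive values. The other such pairs were negative. The labels name no batch, and whether clones of the 2 deletions shared one under other numbers was not tested. With the replicate block 9 members were upregulated in each deletion, and SREBF2 was at -0.016 in ΔE2 and -0.022 in ΔSE12313-b. INSIG1 lost its call in ΔE2 (log2 1.49, adjusted p = 0.0695, limma), FADS2 lost its call in ΔSE12313-b (0.98) and FASN gained one there (1.03). With voom, 1521 genes were upregulated and 1259 downregulated in ΔE2, and 2038 and 1151 in ΔSE12313-b. Low members are limited by depth: TM7SF2 had 19 to 32 reads in the ΔSE12313-b clones and MVK 20 reads in control replicate 2.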

Other observations

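ABCG1 and ABCA1, exporters of cellular cholesterol and known targets of LXR, were chosen after their values were seen. ABCG1 was at 6.18 and 6.47 FPKM in the controls, at 1.23, 4.68 and 1.52 FPKM in ΔE2 and at 1.22, 0.906 and 4.48 FPKM in ΔSE12313-b. It was below the controls in all 6 clones without being a DEG (adjusted p = 0.0981 and 0.0578, limma), and ΔE2 clone 2 and ΔSE12313-b clone 3 again had the highest levels of their deletions. ABCA1 was at 6.08 and 6.37 FPKM in the controls, at 1.62, 3.12 and 1.5 FPKM in ΔE2 and at 4.01, 4.09 and 5.31 FPKM in ΔSE12313-b. It was downregulated in ΔE2 (log2 -1.61 ± 0.29, adjusted p = 0.00224) and lower there than in ΔSE12313-b (log2 -1.13 ± 0.26, adjusted p = 0.0162, limma).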
